A study of Mus musculus with 64 samples.

Results

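The genes described here encode the mitochondrial respiratory chain and ATP synthase, followed in cultured mouse natural killer (NK) cells. They were chosen by symbol from a table of raw counts with 36273 rows: symbols starting with Nduf, Uqcr, Cox4 to Cox8 or Atp5, the genes Sdha to Sdhd, and mitochondrially encoded Nd, Co, Atp and Cytb genes. Processed pseudogene rows were left out, and a mean of at least 5 CPM (a gene's counts times 1000000 over the total of its library) over the 64 libraries was required. Of 103 rows with such a symbol, 92 met this level: 84 genes of the nuclear genome and 8 of the mitochondrial genome (prefix mt-). The 11 rows below it included Cox6c2 at 2.76 CPM, Cox6a2 at 2.69 CPM, Cox7a1 at 1.52 CPM and mt-Atp6 at 0.048 CPM. The members just above it were Atp5g2 at 5.94 CPM, mt-Nd3 at 7.04 CPM and Ndufaf5 at 10.9 CPM. All 92 members passed the filter on low counts that was used for testing. Together they held between 2.24% and 3.94% of a library's counts.

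The respiratory chain sits in the inner mitochondrial membrane. Complex I and complex II take electrons from NADH and succinate, complex III passes them to cytochrome c, complex IV hands them to oxygen, and complex V (ATP synthase) uses the resulting proton gradient to make ATP. Complexes I, III, IV and V are mosaics: a few core subunits are encoded and transcribed inside the mitochondrion, and the rest are nuclear genes whose proteins are imported, whereas complex II is entirely nuclear. In NK cells, oxidative phosphorylation is known to supply energy for cytokine production and killing after cytokine priming.

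The cells were spleen NK cells grown for 5 days with IL-2 and IL15:IL15Ra and then left untreated, given prostaglandin E2 (PGE2, 100 ng/ml) or given conditioned medium (CM) from BRAFV600E tumour cells that make PGE2, for 5 hours. In the stimulated arm, the last 4 of these hours were spent under stimulation through the activating receptor NK1.1. Cells came from 3 genotypes. EP2/EP4KO cells (GzmbCre Ptger2-/-Ptger4fl/fl, here DKO) lack EP2 and carry a Cre driven by Gzmb, a gene active in NK cells, to delete EP4. EP2KO cells (Ptger2-/-Ptger4fl/fl) lack EP2 and keep an unrecombined floxed EP4 gene, so both knockouts share the loss of EP2. WT cells were C57BL/6J. EP2 and EP4 are the receptors through which PGE2 raises cyclic AMP. Each of the 6 conditions had 3 DKO, 4 EP2KO and 4 WT libraries, except that unstimulated PGE2-treated WT cells had 2, which gives 18 groups. Whether replicates are different animals or different cultures is not in the labels. The p-values rest on the spread between the libraries at hand, and some of it may be technical.

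Library totals lay between 753973 and 1693750 counts (median 1256163). The libraries carried NK transcripts, with group means of 6378 to 10074 CPM over 10 NK marker genes, against 26.9 to 84.2 CPM for 8 T-cell markers, 37.7 to 101 CPM for 6 B-cell markers, 95.8 to 194 CPM for 8 myeloid markers, 1.73 to 12.5 CPM for 6 erythroid markers and 0.75 to 4.97 CPM for melanoma markers. No marker in the table was at 0 in all libraries. Neutrophil marker sums were 303 to 415 CPM in the EP2KO groups, against 60.5 to 199 CPM in the other groups. Xist averaged 42.0 ± 11.4 CPM in DKO libraries (SD, n = 18), 646 ± 78.7 CPM in EP2KO libraries (n = 24) and 694 ± 131 CPM in WT libraries (n = 22), and the Y-linked gene Eif2s3y averaged 109 ± 11.3, 5.43 ± 2.56 and 4.34 ± 1.69 CPM in the same order. Sex thus differed together with the DKO genotype, and their effects cannot be told apart. Ptger2 averaged 7.23 ± 4.34 CPM in DKO libraries, 6.36 ± 2.76 CPM in EP2KO libraries and 10.4 ± 7.45 CPM in WT libraries, and Ptger4 averaged 57.6 ± 23.7, 29.7 ± 13.0 and 29.2 ± 16.8 CPM. These are 3′-end counts, and the position of the deleted parts is not given in the sources used here, so they do not check the genotypes.

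The first question was whether the nuclear and the mitochondrial arm of the chain moved together over the 18 groups. In resting untreated cells the 84 nuclear members summed to 20785 ± 1732 CPM in DKO (SD, n = 3), 19705 ± 1149 CPM in EP2KO (n = 4) and 21831 ± 1666 CPM in WT (n = 4). The 8 mitochondrial members summed to 14659 ± 614 CPM in DKO, 14081 ± 671 CPM in EP2KO and 15177 ± 366 CPM in WT. Other mitochondrial mRNAs are not analysed here apart from mt-Atp6, which lay under the floor, so this sum and its ratio to the nuclear sum do not cover the whole mitochondrial arm. The log2 ratio of mitochondrial to nuclear counts was -0.50 ± 0.068 in DKO, -0.48 ± 0.074 in EP2KO and -0.52 ± 0.087 in WT. In the bulk samples used here, fewer cells and less RNA per cell cannot be told apart, and all values are shares of a library.

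As shares of a library, both mean sums were lower after stimulation through NK1.1. Stimulated untreated DKO libraries had nuclear sums of 19958, 18244 and 15707 CPM (replicates 1 to 3), against 21262, 22229 and 18865 CPM in unstimulated ones. Stimulated untreated EP2KO libraries had 15998, 15189, 17860 and 18484 CPM (replicates 1 to 4), against 18479, 19985, 21160 and 19195 CPM. The means differed by -13.5% in DKO cells and -14.3% in EP2KO cells, and in each the highest stimulated library lay above the lowest unstimulated one. In untreated WT cells the nuclear sum was 15921 ± 4266 CPM with stimulation and 21831 ± 1666 CPM without it, a difference of -27.1% with no overlap between libraries. The mitochondrial sum differed by -9.01% in DKO cells and -17.5% in WT cells, both without overlap, and by -8.37% in EP2KO cells with overlap. No test was run on these sums. After normalisation by trimmed means, the median log2 fold change of the nuclear members was -0.036 in DKO, -0.075 in EP2KO and -0.30 in WT cells. For the 8 mitochondrial members it was 0.048, 0.013 and -0.13, with 4, 4 and 6 values negative. A fall of the mitochondrial members in DKO and EP2KO cells was thus seen in the shares only.

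The WT value rested on libraries that stood apart. The 4 stimulated untreated WT libraries had nuclear sums of 13734, 11045, 18714 and 20191 CPM (replicates 1 to 4), so replicates 1 and 2 were the lowest of the group. Their mitochondrial sums were 10935, 11404, 13766 and 13960 CPM. The share of counts in the 89 cytosolic ribosomal protein genes moved with them, at 9.04%, 6.87%, 11.2% and 12.2%. Without these 2 libraries, the nuclear sums of 18714 and 20191 CPM were still below those of all unstimulated untreated WT libraries (20346 to 23368 CPM). The numbers of stimulation calls in WT cells and the values of some named members are given both with and without replicates 1 and 2. Counts per complex, the lists of further genes and the fit that adds the ribosomal protein level used all 4 libraries.

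**Figure D1:**
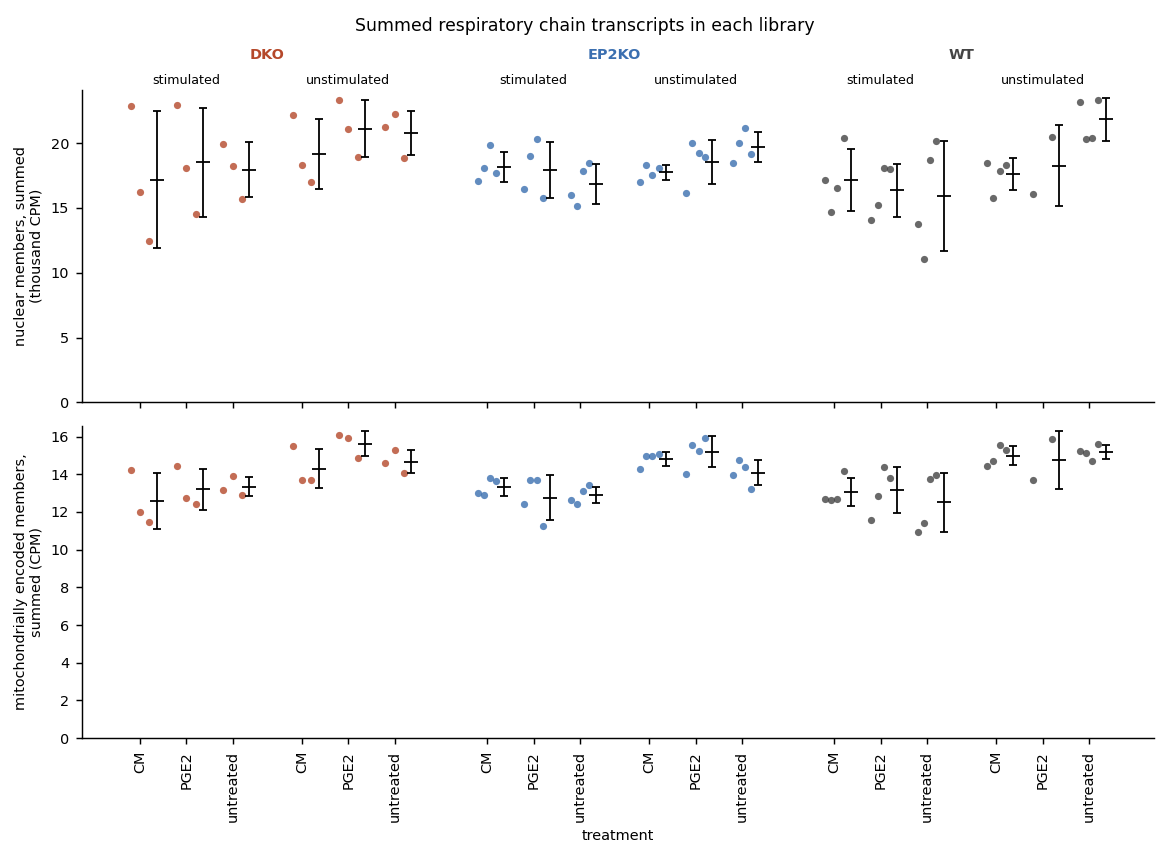
Summed CPM of the nuclear members (upper panel) and of the mitochondrially encoded members (lower panel) in each library (points), with mean and SD (bars). Cells are DKO, EP2KO and WT, by stimulation and treatment (x axis). Both y axes use the unit printed on the upper one, although the lower one is labelled CPM. Nuclear sums are lower in treated than in untreated unstimulated WT cells (17610 ± 1254 CPM with CM, 21831 ± 1666 CPM without), whereas the mitochondrial sums of those groups are close (14993 ± 502 and 15177 ± 366 CPM).

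The nuclear and mitochondrial arms parted in resting cells given PGE2 or CM. In unstimulated WT cells, CM went with a nuclear sum of 17610 ± 1254 CPM, against 21831 ± 1666 CPM in untreated cells, a difference of -19.3% with no overlap. The mitochondrial sum was 14993 ± 502 CPM with CM and 15177 ± 366 CPM without, a difference of -1.21%. The log2 ratio of mitochondrial to nuclear counts was therefore higher with CM, at -0.23 ± 0.11 against -0.52 ± 0.087 (difference 0.29, no overlap). The ratio was also higher with CM in EP2KO cells, at -0.26 ± 0.028 with CM and -0.48 ± 0.074 without (difference 0.22, no overlap). There the nuclear sum differed by -9.94% without overlap and the mitochondrial sum by 5.23% with overlap. PGE2 alone gave differences of 0.22 in WT cells, with 2 treated libraries, and of 0.20 in EP2KO cells, both without overlap. With PGE2 the nuclear sum differed by -16.4% in WT and -5.71% in EP2KO cells, and the mitochondrial sum by -2.71% in WT and 7.87% in EP2KO cells, all with overlap. In DKO cells the libraries overlapped, with differences of 0.083 for CM and 0.071 for PGE2. Whether the genotypes differed in this was not tested. The ribosomal protein share was 12.1 ± 1.54%, 11.5 ± 0.761% and 11.9 ± 1.06% with CM in DKO, EP2KO and WT cells, against 12.3 ± 1.55%, 11.8 ± 0.946% and 13.2 ± 1.15% without. Malat1, a nuclear-retained RNA, stood at 10403 ± 3047, 12354 ± 471 and 11586 ± 2302 CPM with CM in the same genotypes, against 8386 ± 1843, 9093 ± 1631 and 7320 ± 1397 CPM without. Their part in the ratio was not tested. Both treatments were compared with the same untreated libraries.

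In stimulated cells neither treatment separated the ratio from that of untreated cells. In DKO, EP2KO and WT cells the differences were 0.010, -0.061 and -0.074 for CM and -0.041, -0.10 and 0.0026 for PGE2. With stimulation the ratio of untreated cells was higher by 0.077 in DKO, 0.10 in EP2KO and 0.21 in WT cells, with overlapping libraries. The WT value was 0.034 without the 2 libraries that stood apart. Between the untreated resting genotypes the ratio differed by 0.037 (EP2KO minus WT) and by -0.017 (DKO minus EP2KO).

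**Figure D2:**
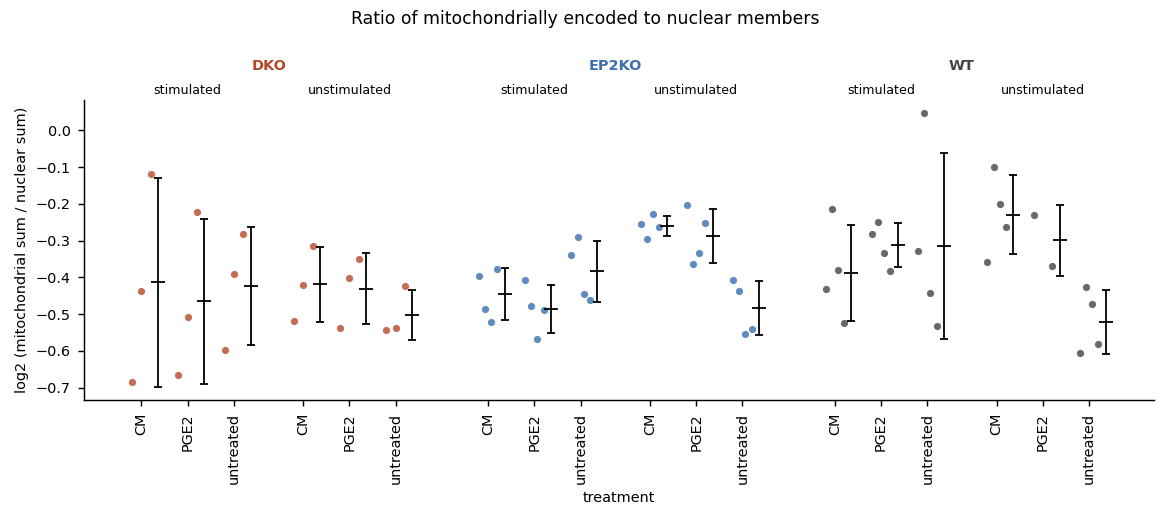
Log2 ratio of summed mitochondrial to summed nuclear members (y axis) in each library (points) with mean and SD (bars), by genotype, stimulation and treatment (x axis). Among unstimulated EP2KO cells, the CM libraries (mean -0.26) lie above the untreated ones (mean -0.48), and in stimulated cells the treatments overlap.

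Over all 64 libraries the nuclear sum moved with other properties of the libraries. On a log scale it correlated with the ribosomal protein share at r = 0.94, or at r = 0.95 for deviations from the group means. The correlation with the mitochondrial sum was 0.77, with Malat1 -0.78, with the mean transcript length of the counted genes -0.87 and with the total count -0.009. The log2 ratio correlated with the ribosomal protein share at r = -0.66 and with Malat1 at r = 0.85. These 64 points share libraries and group effects, and the values are a description. The part of these library properties in the differences of the nuclear sum and of the ratio was not tested on the sums themselves.

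**Figure D3:**
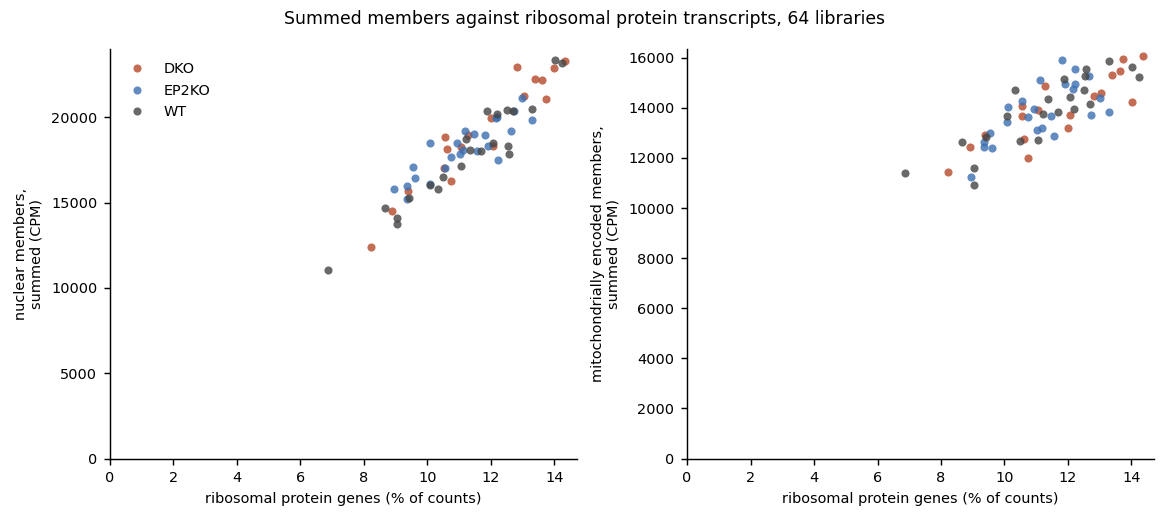
Summed nuclear members (left) and summed mitochondrially encoded members (right) in CPM (y axes) against the share of counts in ribosomal protein genes (x axes), with 1 point for each of the 64 libraries, coloured by genotype. Nuclear sums rise with the ribosomal protein share in every genotype (r = 0.94 over all libraries).

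Member by member, most nuclear genes followed that common course. Of the 84, 70 correlated with the sum of the other nuclear members at r over 0.5 (median 0.81, 64 libraries), led by Cox6b1, a complex IV subunit, at 0.94. Their group means spanned a median of 1.53-fold between the lowest and the highest of the 18 groups, and 10 spanned over 2-fold. Ndufs1, a core subunit that carries iron-sulfur clusters in complex I, ran against the sum (r = -0.63), as did Ndufaf4 (r = -0.35) and Atp5l, a membrane subunit of ATP synthase (r = -0.31). Ndufaf4 had the widest span of all members, 6.67-fold, with group means between 21.8 CPM in unstimulated CM-treated WT cells and 145 CPM in stimulated untreated EP2KO cells. Atp5g2 came next at 2.92-fold, followed by Ndufaf6 at 2.65-fold, mt-Nd3 at 2.56-fold and mt-Nd6 at 2.45-fold, all at 5.94 to 60.7 CPM over all libraries.

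Ndufaf4 encodes a complex I assembly factor, a protein that helps build complex I without remaining in it. The gene lies at chr4:24898083-24905001 on the plus strand (GRCm38). Nuclear respiratory genes are known targets of the transcription factor NRF1, and 18 of the 71 nuclear members with a RefSeq promoter window (25.4%) held its palindromic motif (GCGCA, any base, then GCGC), against 5.19% of 27025 genes. The window runs from 250 bases before to 50 bases after the transcription start, and motifs were searched on both strands. Other motifs were CCGGAAGT (GABPA) in 7.04% of members and 4.31% of all genes, AAGATGGC (YY1) in 15.5% and 3.19%, TGACGTCA (the cyclic AMP response element) in 5.63% and 2.03%, the TGACGT contained in it in 12.7% and 8.37%, and CACGTG (E-box) in 8.45% and 8.09%. The windows of 3 members that responded to stimulation were read: Ndufaf4, which rose, and Ndufa6 and Cox7a2l, which fell. Ndufaf4 and Ndufa6 hold the NRF1 motif, in capitals, 113 bases before and 23 bases after the start, and the Cox7a2l window, around RefSeq's start, holds none of the motifs searched. A match is a description of the sequence only. The windows, from RefSeq on GRCm38.p6 and read along the gene's strand, are chr4:24897833-24898132 (plus strand) for Ndufaf4, chr15:82354242-82354541 (minus strand) for Ndufa6 and chr17:83514284-83514583 (minus strand) for Cox7a2l.
Ndufaf4: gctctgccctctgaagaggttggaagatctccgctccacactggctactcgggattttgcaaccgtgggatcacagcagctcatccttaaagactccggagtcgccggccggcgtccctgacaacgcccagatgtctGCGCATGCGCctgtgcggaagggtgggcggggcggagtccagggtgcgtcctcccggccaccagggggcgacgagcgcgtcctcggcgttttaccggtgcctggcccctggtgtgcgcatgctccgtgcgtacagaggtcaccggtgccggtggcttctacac
Ndufa6: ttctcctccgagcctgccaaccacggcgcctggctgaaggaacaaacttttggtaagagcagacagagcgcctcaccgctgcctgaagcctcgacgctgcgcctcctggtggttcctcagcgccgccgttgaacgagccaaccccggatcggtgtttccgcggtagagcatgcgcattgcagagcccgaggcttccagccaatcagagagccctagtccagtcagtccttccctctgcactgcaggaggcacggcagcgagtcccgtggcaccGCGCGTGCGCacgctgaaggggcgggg
Cox7a2l: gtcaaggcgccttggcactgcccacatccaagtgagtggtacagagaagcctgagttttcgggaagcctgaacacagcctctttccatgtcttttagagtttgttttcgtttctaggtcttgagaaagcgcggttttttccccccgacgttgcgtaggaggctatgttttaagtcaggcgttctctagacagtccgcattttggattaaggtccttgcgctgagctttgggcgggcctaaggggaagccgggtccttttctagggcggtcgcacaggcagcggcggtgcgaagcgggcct

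Ndufaf4 rose with stimulation in every genotype. Stimulated untreated DKO libraries had 138.8, 126.3 and 134.4 CPM, against 31.7, 41.0 and 53.0 CPM in unstimulated ones. Stimulated EP2KO libraries had 162.8, 136.6, 173.5 and 108.6 CPM, against 68.2, 59.0, 45.7 and 59.8 CPM. Stimulated WT libraries had 144.8, 125.7, 164.0 and 142.6 CPM, against 38.4, 68.3, 42.9 and 46.9 CPM. Every stimulated library was above every unstimulated one of its genotype, including WT replicates 1 and 2. In edgeR's quasi-likelihood test with Benjamini-Hochberg adjustment over 10723 genes, the log2 fold changes were 1.84 (SE 0.20, adjusted p = 3.36e-11) in DKO, 1.48 (SE 0.17, adjusted p = 1.01e-10) in EP2KO and 1.69 (SE 0.17, adjusted p = 2.04e-12) in WT. The effect did not differ detectably between genotypes, with differences of -0.20 for EP2KO minus WT and 0.15 for DKO minus WT.

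Ndufaf4 was lower with CM, and in part with PGE2, in EP2KO and WT cells. Unstimulated WT libraries had 22.7, 19.6, 28.7 and 16.2 CPM with CM and 36.9 and 26.4 CPM with PGE2, all below the untreated libraries given above. The CM effect was called (log2 fold change -1.14, SE 0.22, adjusted p = 0.000189), whereas that of PGE2 was not, with 2 treated libraries (-0.60, adjusted p = 0.218). Unstimulated EP2KO libraries had 28.8, 26.4, 29.2 and 22.2 CPM with CM and 42.8, 31.6, 31.2 and 26.5 CPM with PGE2, also below all untreated ones. Both effects were called in EP2KO (CM -1.09, adjusted p = 0.000175, and PGE2 -0.77, adjusted p = 0.0103), and the PGE2 call was lost without untreated replicate 1 (adjusted p = 0.0551). In DKO cells the libraries overlapped, at 33.6, 43.2 and 35.5 CPM with CM and 34.8, 35.5 and 64.1 CPM with PGE2, and the log2 fold changes were -0.13 and 0.12.

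The stimulated arm repeated this order. Stimulated WT libraries had 62.0, 92.4, 73.9 and 72.3 CPM of Ndufaf4 with CM and 91.0, 76.9, 83.9 and 78.1 CPM with PGE2, again without overlap with the untreated ones. The log2 fold changes were -1.07 (SE 0.17, adjusted p = 1.35e-06) for CM and -0.94 (SE 0.17, adjusted p = 1.44e-05) for PGE2. In stimulated EP2KO cells, CM gave 102.0, 99.7, 82.7 and 79.9 CPM (log2 fold change -0.79, adjusted p = 0.000303) and PGE2 gave 122.8, 115.1, 128.3 and 114.8 CPM (-0.38, adjusted p = 0.156), and the PGE2 libraries overlapped the untreated ones. In stimulated DKO cells, PGE2 gave 102.8, 155.5 and 135.8 CPM (-0.04), overlapping the untreated group. CM gave 78.2, 102.3 and 116.6 CPM, which lay below all untreated DKO libraries without being called (-0.46, adjusted p = 0.633).

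The differences between genotypes were tested directly and none was called for Ndufaf4 (nor for another member). For CM in unstimulated cells the DKO minus EP2KO difference was 0.97 on the log2 scale (SE 0.31, unadjusted p = 0.00242, adjusted p = 0.333, background 0.214%). For CM in stimulated cells it was 0.33 (adjusted p = 0.870, background 0.345%) and for PGE2 in stimulated cells 0.34 (adjusted p = 0.773, background 0.951%). The EP2KO minus WT difference for PGE2 in stimulated cells was 0.56 (adjusted p = 1, background 0%). A loss of the response in DKO is therefore not established by these libraries.

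**Figure D4:**
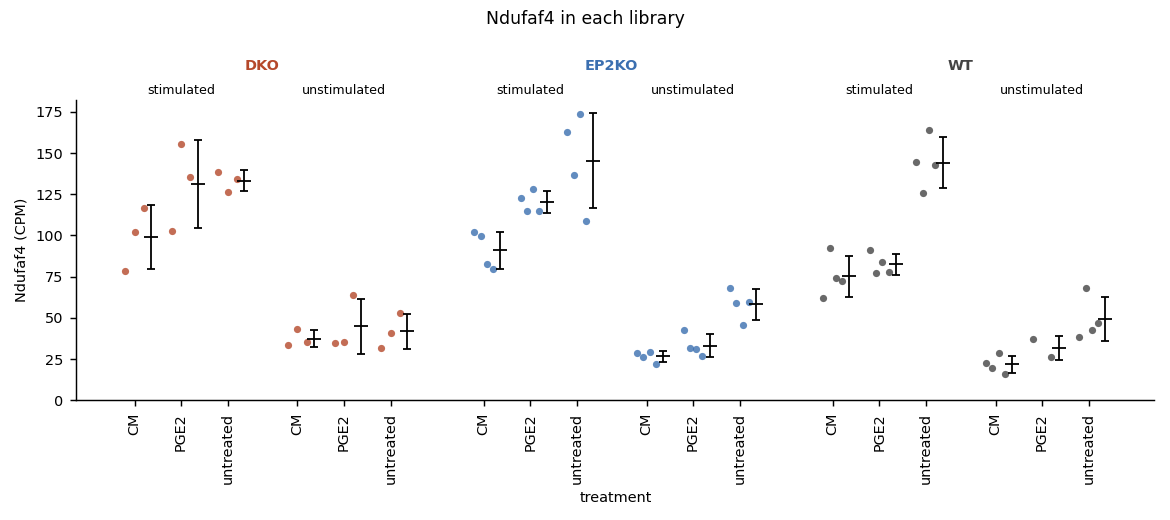
Ndufaf4 in CPM (y axis) in each library (points) with mean and SD (bars), by genotype, stimulation and treatment (x axis). Stimulated untreated groups average 133, 145 and 144 CPM in DKO, EP2KO and WT cells, and CM-treated unstimulated groups average 37.4, 26.6 and 21.8 CPM.

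Without a ribosomal protein term, none of the other 7 assembly factors of complex I was called higher with stimulation. Ndufaf3 fell with stimulation in WT cells (log2 fold change -0.89, adjusted p = 0.0103) and Ndufaf7 in EP2KO cells (-0.57, adjusted p = 0.0256). Ndufaf6 was higher by 0.72 in stimulated WT cells without passing the test (adjusted p = 0.0679). When the ribosomal protein level of each library was added to the fit, an alternative chosen after seeing the data, Ndufaf6 was called higher with stimulation in DKO (0.87, adjusted p = 0.0267) and WT cells (1.1, adjusted p = 0.00391). In that fit Ndufaf2 (0.49, adjusted p = 0.00837) and Ndufaf8 (0.42, adjusted p = 0.0131) were called higher in EP2KO cells. Ndufaf8 fell with CM in unstimulated WT cells (-0.62, adjusted p = 0.033), a call lost in 4 of 8 fits that left out a library. The Ndufaf7 call was lost in 2 of 8 such fits.

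Stimulation called 1 of the 84 nuclear members higher and 1 lower in DKO cells, where 30.2% of all 10723 genes were called (16.4% higher and 13.8% lower). In EP2KO cells it called 2 higher and 4 lower, against a background of 33.3% (18.4% higher and 15% lower). In WT cells it called 26, 3 higher and 23 lower, against a background of 42% (23% higher and 19.1% lower). In WT cells 3.57% of the members were thus called higher and 27.4% lower, or 31% in either direction. The median log2 fold change of the nuclear members was -0.036 in DKO, -0.075 in EP2KO and -0.30 in WT cells, against 0.0052, 0.0074 and 0.009 for all genes, and 74 of the 84 WT values were negative. Members were grouped into complexes by symbol only, with every Nduf gene other than the assembly factors, Ndufa4 included, placed under complex I. That group held most of the WT calls, with 1 of its 37 genes higher and 16 lower. ATP synthase had 1 higher and 4 lower of 16, complex II 1 lower of 4, complex IV 1 lower of 11, and complex III 0 of 8.

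These unequal numbers of calls do not show a difference between genotypes. In the tests of the stimulation effect between genotypes, 0 members were called for EP2KO minus WT (background 0%) and 0 for DKO minus WT (background 0.00933%) by edgeR, and 1 and 0 nuclear members had an unadjusted p under 0.05. Without stimulated untreated WT replicates 1 and 2, an alternative chosen after seeing the data, WT calls were 4 higher and 2 lower (background 32.3%, with 16.2% higher and 16.1% lower), with a median of -0.040. Of the 26 nuclear members called with all libraries, Ndufaf4 (1.78), Cox7a2l (-0.62) and Ndufb10 (-0.62) were still called. The other 23 kept their sign without passing the test, with Ndufa6 at -0.44, Ndufb11 at -0.45, Ndufaf3 at -0.31, Sdhb at -0.33, Ndufv1 at -0.29, Ndufs1 at 0.38 and Atp5l at 0.47. With all libraries, leaving out 1 at a time lost the calls of Ndufaf3 and Ndufv1 in 1 of 8 fits, of Sdhb in 2 and of Atp5l in 3. The direction of the family also turned when the ribosomal protein level of each library was added to the fit. The mean ribosomal protein share was itself lower with stimulation, by 12.3% in DKO, 15.8% in EP2KO and 25.3% in WT cells, with overlapping libraries. It also followed the nuclear sum (r = 0.94 over all libraries). This fit therefore cannot separate an effect of stimulation on the members from one on the ribosomal protein share. With the term, 19 nuclear members (22.6%) were higher and 1 (1.19%) lower in DKO cells (background 37.1%, with 20.7% higher and 16.4% lower, median 0.18). In EP2KO cells 32 (38.1%) were higher and 3 (3.57%) lower (background 39.7%, with 22.2% higher and 17.6% lower, median 0.18). In WT cells 22 (26.2%) were higher and 3 (3.57%) lower (background 39.7%, with 22.3% higher and 17.4% lower, median 0.14). The higher calls in DKO and WT cells were thus near the background. The ribosomal protein genes themselves had a median log2 fold change with stimulation of 0.014 in DKO, -0.058 in EP2KO and -0.23 in WT cells. Genes listed as markers of other cell types moved in the same comparisons. Of 4 tested T-cell markers, Trac was called higher with stimulation (0.56 in DKO, 0.76 in EP2KO and 1.61 in WT). The list did not rise as far, with medians of 0.25 in DKO, -0.097 in EP2KO and 0.11 in WT cells. The 1 tested B-cell marker, Ighm, was called lower (-0.62, -0.59 and -0.71), and of 5 tested myeloid markers Itgam was called lower in EP2KO cells (-0.84). The median of those 5 in EP2KO cells was 0.080. The part of all these markers in the members' changes was not tested.

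**Figure D5:**
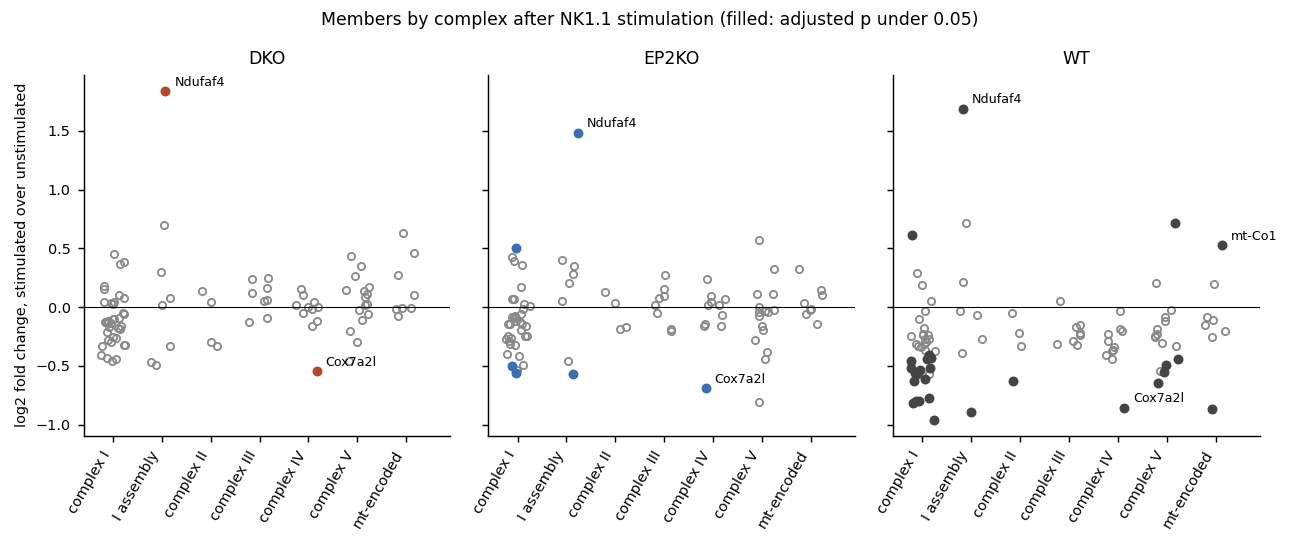
Log2 fold change of each member with stimulation (y axis), grouped by complex according to symbol (x axis), in DKO, EP2KO and WT cells. Called members are filled. Ndufaf4 lies far above the other members in every genotype (1.84, 1.48 and 1.69), and Cox7a2l is among the lowest (-0.54, -0.69 and -0.86).

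Among the catalytic and core subunits, changes with stimulation were small and mixed. Ndufs1 rose in WT cells (log2 fold change 0.62, adjusted p = 0.00717), with values of 0.45 in DKO and 0.36 in EP2KO cells that did not pass. Ndufv1, the subunit that binds NADH, fell in WT cells (-0.44, adjusted p = 0.0227). Of complex II, the iron-sulfur subunit Sdhb fell in WT cells (-0.62, adjusted p = 0.0237), while the flavoprotein Sdha had -0.05. The complex III core genes Uqcrc1 and Uqcrfs1 had -0.29 and -0.22 in WT cells, and the complex IV genes Cox4i1 and Cox5a had -0.34 and -0.23. The catalytic chains of ATP synthase, Atp5a1 and Atp5b, had 0.00 and 0.32 in EP2KO cells and -0.12 and -0.02 in WT cells. None of these last 6 genes was called in any genotype in this fit.

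Among the larger falls with stimulation in WT cells were those of Ndufaf3, Cox7a2l and the complex I subunits Ndufb10 (log2 fold change -0.82) and Ndufb11 (-0.80). The accessory subunit Ndufa6 fell in WT (-0.77, adjusted p = 0.00106) and EP2KO cells (-0.56, adjusted p = 0.0214), and the EP2KO call was lost in 2 of 8 fits that left out a library. Its groups did not overlap in DKO cells either, at 252 ± 31.1 CPM with stimulation and 375 ± 60.2 CPM without (adjusted p = 0.173).

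Cox7a2l was the only nuclear member called lower with stimulation in all 3 genotypes. It encodes a factor related to a complex IV subunit and described as joining complexes III and IV into supercomplexes. Whether its protein does so in these cells was not measured. The gene lies at chr17:83501918-83517330 on the minus strand in GENCODE. RefSeq's start lies inside this span, so the promoter window read for it covers RefSeq's start only. Stimulated untreated DKO libraries had 201.9, 191.3 and 146.5 CPM, against 278.4, 346.7 and 258.1 CPM in unstimulated ones. Stimulated EP2KO libraries had 125.3, 158.1, 164.5 and 145.1 CPM, against 212.1, 313.4, 304.6 and 232.3 CPM. Stimulated WT libraries had 132.8, 116.4, 155.1 and 199.2 CPM, against 333.3, 296.4, 250.3 and 324.6 CPM. No stimulated library reached any unstimulated one of its genotype. The log2 fold changes were -0.54 (SE 0.22, adjusted p = 0.050, just under the threshold) in DKO, -0.69 (SE 0.19, adjusted p = 0.00342) in EP2KO and -0.86 (SE 0.19, adjusted p = 0.000217) in WT. The DKO call was lost in 2 of 6 fits that left out a library, namely without unstimulated replicate 2 or stimulated replicate 3. It was also lost with library totals that leave out mitochondrial genes. In the fit with the ribosomal protein level, Cox7a2l was still called lower in all 3 genotypes, at -0.32, -0.38 and -0.34, and without WT replicates 1 and 2 it had -0.62 in WT.

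In the fit with the ribosomal protein level, which has the limit given above, 15 of the 84 nuclear members were called higher with stimulation in all 3 genotypes. That share was close to the 16.3% of all genes, so it does not set the members apart. Besides Ndufaf4 they were Ndufa12, Ndufab1, Ndufb2 and Ndufb6 of complex I, Uqcrb, Uqcrfs1 and Uqcrq of complex III, Cox7a2, Cox7b and Cox7c of complex IV, and Atp5b, Atp5g3, Atp5md and Atp5mpl of ATP synthase. Ndufa12 was also called in EP2KO cells without the term (0.50, adjusted p = 0.0168). With the term, CM in stimulated cells gave 0 nuclear members higher and 1 lower in DKO (background 0.709%), 0 higher and 20 lower in EP2KO (background 18%) and 0 higher and 17 lower in WT cells (background 24.4%). The lower calls were 23.8% of the members in EP2KO and 20.2% in WT cells, against 11.1% and 14.4% of all genes. PGE2 gave 0 of either kind in DKO (background 0.0187%), 0 higher and 7 lower in EP2KO (background 12.6%) and 0 higher and 17 lower in WT cells (background 24.3%). Here the lower calls were 8.33% of the members in EP2KO and 20.2% in WT cells, against 7.61% and 15% of all genes. Without the term, but also without stimulated untreated WT replicates 1 and 2, PGE2 lowered 15 (background 19.8%, with 10.5% lower) and CM 9 (background 18.2%, with 9.35% lower) in WT cells. Of the 84 nuclear members, only Atp5b and Cox7c were called lower in all 4 EP2KO and WT comparisons with the term, against 4.91% of all genes. Without it and with all libraries, these comparisons of stimulated cells called few members, as given next.

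In resting WT cells CM called 6 nuclear members, all lower, and the median was -0.30 with 80 of 84 values negative. These were 7.14% of the nuclear members, against 3.68% of all genes called lower and 8.23% called in either direction. Beside Ndufaf4 and Ndufaf8, they included Atp5g1, 1 of 3 genes for the same proton-carrying ring subunit of ATP synthase, and the complex I subunits Ndufb10 (-0.68, adjusted p = 0.0164) and Ndufa10 (-0.52, adjusted p = 0.0315). Leaving out a library lost the Ndufb10 call in 1 of 8 fits and the Ndufa10 call in 5 of 8. Atp5g1 had 84.8, 56.9, 79.6 and 72.8 CPM with CM, against 136.0, 130.9, 128.6 and 138.9 CPM in untreated cells, without overlap (-0.82, SE 0.21, adjusted p = 0.00901). Its copies elsewhere in the genome make counting uncertain. In EP2KO cells Atp5g1 had 91.1 ± 17.4 CPM with CM and 124 ± 7.06 CPM without (SD, n = 4 each), and in DKO cells 108 ± 33.4 and 123 ± 16.0 CPM (n = 3 each), neither called. Lower with CM without overlap were 7 of the 84 nuclear members in DKO, 18 in EP2KO and 39 in WT cells. Over all genes these shares were 6.13%, 7.14% and 11.5%. With the ribosomal protein term, CM in resting cells called 0 nuclear members higher and 3 lower in EP2KO (background 7.69%) and 1 higher and 9 lower in WT (background 10.3%, with 4.52% lower), with Atp5g1 at -0.65 in WT. PGE2 called 0 higher and 1 lower in EP2KO (background 5.88%) and 1 higher and 0 lower in WT (background 4.73%).

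Elsewhere Ndufaf4 was the only nuclear member called with treatment. This held for CM in unstimulated EP2KO cells (background 4.37%), PGE2 in unstimulated EP2KO cells (3.15%), PGE2 and CM in stimulated WT cells (15.6% and 15.4%) and CM in stimulated EP2KO cells (10.4%). PGE2 called 0 members in unstimulated WT cells (background 2.97%) by edgeR, with 8 nuclear members at an unadjusted p under 0.05 and a median of -0.24. It called 0 in stimulated EP2KO cells (background 7.29%), with 2 at that level. In DKO cells neither treatment called a member, and few genes of any kind were called (background 0% in unstimulated cells for both treatments, and 0% for PGE2 and 0.0746% for CM in stimulated cells). Between resting untreated genotypes 0 members were called (background 0.0653% for EP2KO minus WT and 0.056% for DKO minus EP2KO), with 2 nuclear members at an unadjusted p under 0.05 in each. Genes listed as markers of other cell types also moved with treatment, and their part in the members' changes was not tested. In resting cells Ighm was called lower with PGE2 in EP2KO (-0.82) and WT (-1.19) and with CM in WT cells (-0.73). Of 5 tested myeloid markers, Itgax was called lower in resting EP2KO and WT cells with PGE2 (-0.90 and -1.01) and with CM (-0.83 and -0.74). The list did not fall with it, as the medians of the 5 were positive there (0.61 and 0.25 with PGE2, 0.72 and 0.72 with CM). In stimulated cells Trac was called lower in WT with PGE2 (-0.77) and CM (-0.61), and Cd3g lower in WT with PGE2 (-1.67). There the 4 tested T-cell markers had medians of -0.53 with PGE2 and -0.36 with CM. Itgax was called lower in stimulated WT cells with PGE2 (-0.58) and CM (-0.63) and in stimulated EP2KO cells with CM (-0.50). The medians of the 5 myeloid markers in these comparisons were 0.031, 0.13 and 0.39. Cd14 was called higher in stimulated EP2KO cells with PGE2 (1.89) and CM (2.67).

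The 8 mitochondrial members were mt-Nd1 to mt-Nd6 of complex I, mt-Cytb of complex III and mt-Co1 of complex IV, and their levels ran between 7.04 CPM for mt-Nd3 and 5759 CPM for mt-Cytb over all libraries. They did not move as 1 block. Their correlation with the nuclear sum was 0.89 for mt-Nd1 and 0.80 for mt-Cytb, but -0.46 for mt-Co1 and -0.24 for mt-Nd5 (64 libraries). mt-Nd1 was the steadiest of all 92 members, with group means 1.20-fold apart at most.

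mt-Co1, the catalytic core of complex IV (position 5328 to 6872 of the mitochondrial genome), went up in resting WT cells given CM. CM-treated libraries had 705.4, 829.3, 1092.8 and 890.0 CPM, against 423.5, 736.2, 671.2 and 529.6 CPM in untreated ones, and 1 untreated library lay above the lowest CM-treated one. The log2 fold change was 0.63 (SE 0.17, adjusted p = 0.015), and 3 of 8 fits that left out a library lost the call. In DKO and EP2KO cells the values were 0.60 (adjusted p = 0.818) and 0.36 (adjusted p = 0.307). With stimulation, untreated WT libraries had 559.7, 1145.7, 835.6 and 580.6 CPM, and the rise of 0.53 (adjusted p = 0.0111) was lost without stimulated replicate 2 (0.28, adjusted p = 0.213) or unstimulated replicate 1 (0.36, adjusted p = 0.117). It was 0.41 (adjusted p = 0.0961) without replicates 1 and 2. In stimulated WT cells CM gave 502.4, 656.9, 691.8 and 729.7 CPM, which was not called (-0.38, adjusted p = 0.132). The CM effect differed between stimulated and unstimulated WT cells by -1.01 (SE 0.24, adjusted p = 0.0125), the only member called in that comparison (background 2.19%), and 4 of 16 fits that left out a library lost that call. For PGE2, 0 members differed between the states by edgeR (background 1.31%), with 1 nuclear and 1 mitochondrial member at an unadjusted p under 0.05.

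mt-Nd3, a small complex I subunit (position 9459 to 9806), fell with CM in resting WT cells, to 3.9, 1.0, 6.5 and 8.1 CPM against 14.8, 9.1, 13.6 and 8.4 CPM in untreated ones (log2 fold change -1.19, SE 0.39, adjusted p = 0.045). It also fell with stimulation, to 2.2, 7.9, 7.3 and 5.5 CPM (-0.87, adjusted p = 0.0404, and -0.70 without replicates 1 and 2, adjusted p = 0.203). These are a few counts per library, and both calls were lost in DESeq2's test and without the filter on low counts. Leaving out a library lost the CM call in 5 of 8 fits and the stimulation call in 3 of 8. In DKO cells mt-Nd3 was higher with stimulation by 0.63 (adjusted p = 0.243). With the ribosomal protein term, mt-Nd1 was called higher with stimulation in DKO (0.24), EP2KO (0.29) and WT cells (0.21). The mitochondrial ribosomal RNA mt-Rnr1, which is no member, rose with CM in resting WT cells (0.49, adjusted p = 0.0388).

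Further genes that act on the chain were followed as lists. Over all genes, stimulation called 16.4% higher and 13.8% lower in DKO, 18.4% and 15% in EP2KO, and 23% and 19.1% in WT cells. Of 29 tested genes for expression of mitochondrial DNA, 10 rose in DKO, 10 in EP2KO and 15 in WT cells, and none fell. They included Lrpprc, which stabilises mitochondrial mRNA (1.44 in WT, adjusted p = 2.39e-07), Tbrg4 (1.30, 1.14 and 1.09 in DKO, EP2KO and WT) and Pnpt1, a mitochondrial RNA-degrading enzyme (1.11, 1.05 and 1.06). Of 16 regulators of mitochondrial biogenesis, 4, 3 and 6 rose and 2, 2 and 2 fell in DKO, EP2KO and WT cells. The coactivator Pprc1 rose by 1.72, 1.44 and 2.04, Gabpb1 by 1.01, 0.80 and 1.17 and Myc by 1.78, 1.42 and 1.43, whereas the coactivator Ppargc1a fell in WT cells (-2.59, adjusted p = 7.61e-07).

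Of 25 genes of the chain outside the symbol rule, 3, 5 and 5 rose and 1, 3 and 4 fell in DKO, EP2KO and WT cells. Cycs, cytochrome c, rose by 0.87, 1.06 and 0.99 in DKO, EP2KO and WT cells, Gpd2, which passes electrons from glycerol 3-phosphate to the quinone pool, by 1.39, 1.25 and 1.36, and the import factor Chchd4 by 1.49, 0.93 and 1.25. Of 40 further assembly factors, 8, 5 and 5 rose and 4, 5 and 10 fell, including the complex IV factor Surf1 (-1.48 in WT) and the complex I factor Tmem126b (-1.18, -1.0 and -1.28). Of 22 genes of the citric acid cycle and pyruvate entry, 3, 2 and 2 rose and 2, 2 and 5 fell. Pdk1, a kinase that restrains pyruvate entry, fell by 1.14, 0.94 and 1.26, and Suclg1 fell by 0.54, 0.53 and 0.75.

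PGE2 and CM moved part of these genes. In stimulated WT cells 15.6% of all genes were called with PGE2 and 15.4% with CM. There 2 of the 16 biogenesis regulators rose and 3 fell with each treatment. Of the 25 chain genes, 1 rose with each, and 5 fell with PGE2 and 3 with CM. Of the 40 assembly factors, 4 fell with PGE2, and 1 rose and 3 fell with CM. Of the 22 citric acid cycle genes, 1 fell with PGE2. Hif1a rose and Myc fell in all 8 comparisons of WT and EP2KO cells, which share untreated libraries within each state. For CM in resting cells, Hif1a had 0.54 in EP2KO and 0.87 in WT, and Myc had -0.84 in EP2KO and -1.20 in WT. In stimulated WT cells PGE2 lowered 4 and raised 1 of the 29 genes for mitochondrial DNA expression (15.6% of all genes were called), among them Tfam, the packaging factor of mitochondrial DNA (-0.60, adjusted p = 0.00182), and Tbrg4 (-0.69). CM lowered 3 of the 29 and raised 1 in stimulated EP2KO cells (10.4% of all genes called), and lowered 3 in stimulated WT cells (15.4%). Coq8a, needed for coenzyme Q synthesis, rose in stimulated cells with PGE2 (1.55 in EP2KO and 1.77 in WT) and CM (1.19 and 1.43). In DKO cells none of these 5 lists had a called gene with either treatment.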

How the data were processed

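Per the labels, 3′ libraries were primed with oligo-dT and carried unique molecular identifiers. Raw counts for 64 libraries were deposited by the authors in a single table, whose columns all matched a sample (0 without one). Per the submitters' processing notes the genome was GRCm38 (mm10) with DESeq2 among the tools, while aligner and counting tool were not given in the sources used here. Counts were normalised by trimmed means (factors 0.873 to 1.081), filtered with filterByExpr (minimum count 10, leaving 10723 genes and 99.21% of counts) and fitted over all 64 libraries with 1 mean per group by edgeR 4.0.16's quasi-likelihood test (limma 3.58.1, R 4.3.3), which was checked on simulated counts with 200 changed genes. P-values were adjusted by Benjamini-Hochberg over all genes and called under 0.05. DESeq2 1.42.0 was an alternative. Sums and ratios used CPM and had no test. Members, lists and comparisons were chosen with earlier results of these data known. Tests of genotype differences in stimulation and CM effects, the ribosomal protein term and the fit without the WT libraries that stood apart were added after seeing the data. Named genes were all mitochondrial members, up to 5 called nuclear members each way per comparison by fold change, fixed core subunits, up to 4 called genes per list and those nearest the 5 CPM floor. Genes named outside this rule were chosen after their values were seen. Replicates sharing a number were not treated as paired, because the labels do not say what a number marks. Correlations of same-numbered deviations ran between -0.12 and 0.60. Most exceeded 0.1, namely 38 of 45 DKO, 47 of 60 EP2KO and 38 of 50 WT pairs, so the unpaired fit may leave out a shared component. A fit with the number as a block is given below. Positions are from GENCODE for GRCm38 and promoter sequences from RefSeq for GRCm38.p6, with 71 of 84 nuclear members matched. Near-identical copies and overlapping genes are uncertain in counts. A member that the naming rule selects is not reported here.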

Additional observations from a re-analysis of the deposited data

Results flagged for a closer look

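Groups of 4 libraries were checked for a library far from the others. The checks covered both sums, the ratio, Ndufaf4, Cox7a2l, mt-Co1 and mt-Nd3. Of 77 checks, 2 were flagged, both on the mitochondrial sum, where chance flags about 1 in 20. The summed mitochondrial members of stimulated CM-treated WT replicate 4 were 14163 CPM, and those of unstimulated CM-treated EP2KO replicate 1 were 14260 CPM, each far from the other 3 libraries of its group. The CM effect on mt-Co1 differed between stimulated and unstimulated WT cells by -1.01 on the log2 scale (edgeR's interaction test, adjusted p = 0.0125). No explanation of these values was tested.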

How the results depend on the processing

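DESeq2's size factors in place of trimmed means left the number of called members within 1.5 times in all 50 counts and left each named gene on its side of the threshold. The ratio differences kept their sign or stayed within the spread with member floors of 1 or 20 CPM and without assembly factors. DESeq2's test left 1 mitochondrial member called with stimulation and 1 with CM in resting WT cells. Without the filter on low counts, 1 mitochondrial member was called in each of these and in PGE2-treated stimulated DKO cells, and 10 nuclear members were called with CM in resting WT cells. Totals without mitochondrial genes left 1 nuclear member called with stimulation in DKO cells, with the call of Cox7a2l lost.

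The replicate block (a term for the replicate number within a genotype) raised the calls, over all genes too: with stimulation 49.3% of all genes were called in WT, 40.7% in EP2KO and 38.4% in DKO cells (42%, 33.3% and 30.2% without it), and with CM in resting WT cells 16.4% (8.23% without it). With stimulation it called 52 nuclear and 4 mitochondrial members in WT cells, 19 and 1 in EP2KO cells, and 12 and 1 in DKO cells. With PGE2 it called 5 nuclear members in resting WT cells (6.33% of all genes called) and 2 in stimulated WT cells (21.7%). In stimulated EP2KO cells (11.7%) PGE2 called 1 nuclear (Ndufaf4, -0.37, adjusted p = 0.0441) and 1 mitochondrial member. With CM it called 28 nuclear members in resting WT cells, or 33.3%. It called 3 nuclear and 1 mitochondrial member in resting EP2KO cells (7.77% of all genes called) and 1 mitochondrial in resting DKO cells (0.0839%). In stimulated cells CM called 3 and 1 in WT (21.9%) and 3 and 1 in EP2KO (16%). For the difference of the CM effect between WT states, 8 nuclear (9.52%) and 2 mitochondrial members were called. That nuclear share was near the 8.57% of all genes. Of the 64 libraries, 51 correlated best with their own number, a hint from the data and not from the design. Between untreated libraries of the same number, the nuclear sum was lower with stimulation in 3 of 3 DKO, 4 of 4 EP2KO and 4 of 4 WT cases. The ratio was higher with stimulation in 2 of 3 DKO, 4 of 4 EP2KO and 4 of 4 WT cases. In resting DKO cells the ratio was higher with CM in 3 of 3 cases and with PGE2 in 3 of 3. In stimulated EP2KO cells it was lower with PGE2 in 4 of 4 cases. In all of these the groups overlapped, except for the nuclear sum with stimulation in WT cells, where they did not.

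Without stimulated untreated WT replicates 1 and 2, stimulation called 6 nuclear and 0 mitochondrial members in WT, PGE2 15 and 1, and CM 9 nuclear. With the ribosomal protein term, stimulation called 35 nuclear and 2 mitochondrial members in EP2KO, 20 and 1 in DKO and 1 mitochondrial in WT cells. PGE2 called 1 nuclear in resting WT, 1 mitochondrial in resting EP2KO, 17 and 1 in stimulated WT and 7 and 2 in stimulated EP2KO cells. CM called 10 and 1 in resting WT, 3 and 1 in resting EP2KO, 17 and 1 in stimulated WT, 20 and 3 in stimulated EP2KO and 1 nuclear in stimulated DKO cells. The stimulation values of Atp5pb (0.034), Ndufa13 (0.042), Ndufa7 (0.0082) and Ndufb5 (0.010) in WT turned positive with this term. The cause of these changes was not tested.

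Leaving out 1 library at a time gave 12 (without stimulated untreated replicate 2) to 51 (without replicate 4) nuclear and 0 to 3 mitochondrial calls with stimulation in WT, 3 to 10 nuclear in EP2KO and 1 to 6 in DKO cells. With CM the ranges were 2 to 6 nuclear and 0 to 2 mitochondrial in resting WT, 1 to 2 and 0 to 1 in stimulated WT, and 0 to 1 and 0 to 1 for the difference between WT states. With PGE2 they were 0 to 1 nuclear in resting EP2KO (lost without untreated replicate 1), 1 to 2 nuclear in stimulated WT, and 0 to 1 nuclear and 0 to 1 mitochondrial in stimulated EP2KO cells.

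At these totals 1 count is close to 1 CPM, so members near the floor rest on few counts, and PGE2 in resting WT cells rests on 2 treated libraries.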
